A study of Mus musculus with 42 samples.

Results

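Very long lamina-associated domain (LAD) calls were all calls of at least 5 Mb on chromosomes 1 to 19, and 368 of the 2845 calls in 14 libraries met this rule. The other 2396 calls on these chromosomes are referred to as shorter calls. The very long calls made up 13.3% of the calls on chromosomes 1 to 19 and 38.5% of the base pairs called there. Each library was a chromatin immunoprecipitation of lamin B1 (LMNB1) from the liver of 1 wild-type C57Bl/6 mouse, called for domains with Enriched Domain Detector (EDD) on the mm10 genome. There were 7 groups of 2 mice. The NS group, for non-synchronized, was taken at noon, before any fast. The other 6 groups went through a 24 h fast that ended at circadian time CT0, when free feeding began, and are named by the hour of collection, CT0, CT6, CT12, CT18, CT24 or CT30. The study's methods and the growth protocol in the labels give male mice, whereas the sample fields give female. The liver pieces held all hepatic cell types, and a call shows neither which cells nor what share of them carried the domain.

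LADs are stretches of chromatin in contact with the nuclear lamina, the meshwork of lamins A/C, B1 and B2 that lines the inner nuclear membrane. They are mostly transcriptionally silent, rich in A and T bases and poor in genes. The longest ones often coincide with gene deserts, intervals of megabases with few genes, many of which act in neurons and are silent in liver. A LAD shared by many cell types is called constitutive, whereas a facultative LAD is limited to some of them.

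Overlapping very long calls of different libraries were grouped into loci. The 368 calls formed 54 loci, numbered along the genome, which together covered 453 Mb or 18.4% of chromosomes 1 to 19. Sequences are shown first to give the reader the 2 kinds of DNA in these loci, desert and promoter. The desert windows are 150 bases without soft-masked repeat, the nearest ones to the middle of the stretch that very long calls covered in all 14 libraries. They come from the longest such stretch, on chromosome 15, and from those on chromosomes 8 and 11. Capitals mark runs of 6 or more A or T. All sequences are RefSeq GRCm38.p6, 5′ to 3′, and the windows are on the plus strand at chr15:19179164-19179313, chr8:99773492-99773641 and chr11:39756938-39757087.
chr15 desert: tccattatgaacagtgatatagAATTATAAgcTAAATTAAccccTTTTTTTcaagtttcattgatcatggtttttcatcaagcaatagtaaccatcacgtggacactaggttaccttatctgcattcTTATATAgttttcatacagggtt
chr8 desert: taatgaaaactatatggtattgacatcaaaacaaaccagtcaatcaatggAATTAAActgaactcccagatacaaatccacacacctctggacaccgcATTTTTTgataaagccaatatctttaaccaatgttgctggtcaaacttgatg
chr11 desert: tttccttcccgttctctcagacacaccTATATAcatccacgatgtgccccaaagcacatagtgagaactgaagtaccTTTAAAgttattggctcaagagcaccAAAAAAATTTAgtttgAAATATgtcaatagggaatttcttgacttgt

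These windows lie 165 kb, 357 kb and 922 kb from the nearest protein-coding gene body, in that order. Their GC contents are 32%, 35.3% and 38.0%, the lowest among the windows of the 7 stretches. The windows not shown have 40% (locus 9), 42% (locus 45), 43.3% (locus 4) and 56% (locus 19). Those of loci 4 and 19 hold no run of 6 or more A or T. Over the 7 stretches, runs of 6 or more A or T, which lie at the same positions on both strands, took 17.4% of the bases (15.8% to 18.6%), compared with 12.0% on chromosomes 1 to 19.

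The promoters below, from 250 bases before to 50 after the start, are the CG-richest and the CG-poorest among listed genes lying in a very long call in all 14 libraries, of those whose RefSeq start is within 50 bases of the GENCODE start. Cdh8 encodes a type II cadherin, a calcium-dependent adhesion protein of neurons, and Gabra6 encodes a subunit of the GABA-A receptor, an inhibitory chloride channel. Both genes are on the minus strand and their windows are chr8:99416422-99416721 and chr11:42321023-42321322. Capitals mark CG dinucleotides.
Cdh8 promoter: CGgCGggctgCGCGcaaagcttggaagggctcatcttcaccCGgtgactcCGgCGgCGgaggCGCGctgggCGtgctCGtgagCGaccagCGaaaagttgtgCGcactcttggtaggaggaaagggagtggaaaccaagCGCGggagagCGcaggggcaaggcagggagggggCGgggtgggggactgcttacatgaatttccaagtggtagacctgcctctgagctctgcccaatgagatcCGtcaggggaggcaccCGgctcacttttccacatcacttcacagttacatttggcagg
Gabra6 promoter: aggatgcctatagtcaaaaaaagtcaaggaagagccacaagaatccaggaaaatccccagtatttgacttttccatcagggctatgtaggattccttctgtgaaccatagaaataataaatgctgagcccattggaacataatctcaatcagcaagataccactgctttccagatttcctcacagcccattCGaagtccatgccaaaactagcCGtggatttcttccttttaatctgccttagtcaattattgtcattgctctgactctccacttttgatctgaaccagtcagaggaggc

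The Cdh8 window holds 21 CG and the Gabra6 window 2. In windows of the same length read from the genome at every GENCODE start, 94.9% of the 20807 autosomal protein-coding genes had at least 1 CG and the median was 12. The 30 genes in a very long call in all 14 libraries (0.144% of all) had a median of 8 CG (1 to 23), and 11 of them had 10 or more, or 36.7% against 54.5% of all genes. The 366 olfactory and vomeronasal receptor genes found in a very long call in any library had a median of 1 CG. The genes of the most recurrent loci included CG-rich promoters, among them Dsel with 23 CG and Tenm2 with 18 CG.

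The length of the very long calls ranged from 5.004 to 19.304 Mb, with a median of 6.83 Mb. The calls were chosen by this length, so it is given as a description with no test. There were 63 calls from 5 to 5.5 Mb, and just below the limit 98 calls from 4.5 to 5 Mb, the longest of 4.991 Mb. The calls of at least 10 Mb numbered 48, and 14 reached 15 Mb. All 14 of these lay in loci 14, 15, 44 and 48, on chromosomes 4, 14 and 16. No very long call was free of protein-coding start sites. The number of start sites per call ranged from 1 to 234 with a median of 7, and 94 calls held 1 to 3. Gene density was below 1 start site per Mb in 196 of the 368 calls, and the median was 0.933 per Mb, compared with 8.45 per Mb over chromosomes 1 to 19.

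Every library held very long calls, from 17 in CT30 replicate 1 to 42 in CT18 replicate 1. The counts of replicates 1 and 2 were 22 and 21 for NS, 30 and 24 for CT0, 28 and 24 for CT6, and 23 and 27 for CT12. They were 42 and 28 for CT18, 34 and 28 for CT24, and 17 and 20 for CT30. Both CT30 livers were below every other liver, both NS livers came next, and the range of each time point from CT0 to CT24 overlapped with that of at least 1 other. The sum of lengths followed the same order at its extremes, with 125 and 140 Mb at CT30 and 350 and 196 Mb at CT18. Very long calls took between 29.1% (NS replicate 2) and 56.7% (CT18 replicate 1) of the called base pairs of a library.

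**Figure D1:**
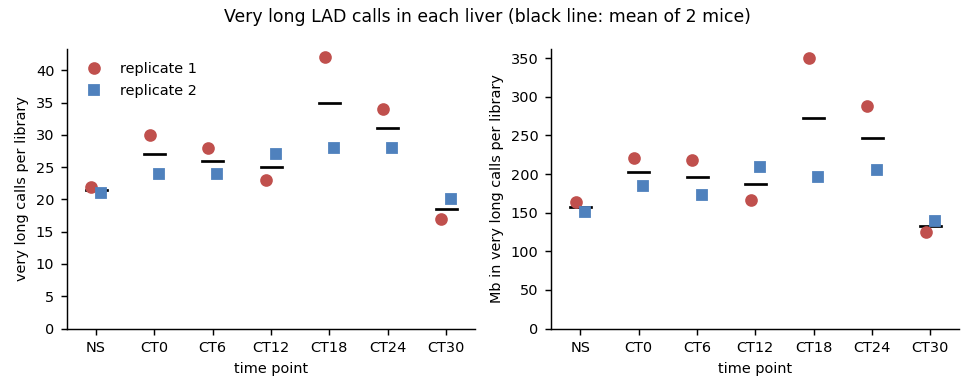
The left plot gives the number of very long calls and the right plot their summed length in Mb for each library, by time point, with a circle for replicate 1, a square for replicate 2 and a black line at the mean of 2 mice. CT18 replicate 1 stood highest in both plots, with 42 calls and 350 Mb, and both CT30 livers stood lowest.

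Whether the very long calls changed over the cycle was tested over the 12 livers from CT0 to CT30. The mean count was 27.0 ± 4.24 (SD, n = 2) at CT0, 35.0 ± 9.90 at CT18 and 18.5 ± 2.12 at CT30. The difference among time points did not pass the threshold of 0.05 (F = 2.44, exact permutation test over all 10395 divisions into pairs, p = 0.129, adjusted p = 0.215 over the 10 tests made). The same held for summed length (F = 1.59, exact permutation p = 0.238, adjusted p = 0.340). With replicate numbers taken as blocks, as given at the end, the count passed the threshold and the summed length did not. Leaving out 1 library moved both F values, the most without CT18 replicate 2, where F was 7.28 for the count and 5.75 for the length. CT18 was then the single liver with 42 calls, so that no spread between its mice entered F. CT0 exceeded NS by 5.5 calls (exact two-sided permutation p = 0.333, n = 2 and 2), which is the smallest p that 2 against 2 can give. NS livers were taken at noon and CT0 falls at lights-on, so that fasting and clock time cannot be told apart here.

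Recurrence separated the 54 loci widely. A very long call occurred in all 14 libraries at 7 loci, in 7 to 13 libraries at 17 loci, in 2 to 6 libraries at 18 loci and in a single library at 12 loci. The 24 loci with a very long call in at least 7 libraries held 290 of the 368 calls. With a limit of 6 Mb there were 15 such loci. The 12 single-library loci came from replicate 1 livers: 5 from CT18, 4 from CT0, 2 from CT6 and 1 from CT24. At 4 of these 12 loci every library still had some call, and at the other 8 some library had none. The number of loci with a very long call in both mice was 11 for CT30 and 12 for NS. It was higher for CT0 (18), CT6 (19), CT12 (21), CT18 (24) and CT24 (25).

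**Figure D2:**
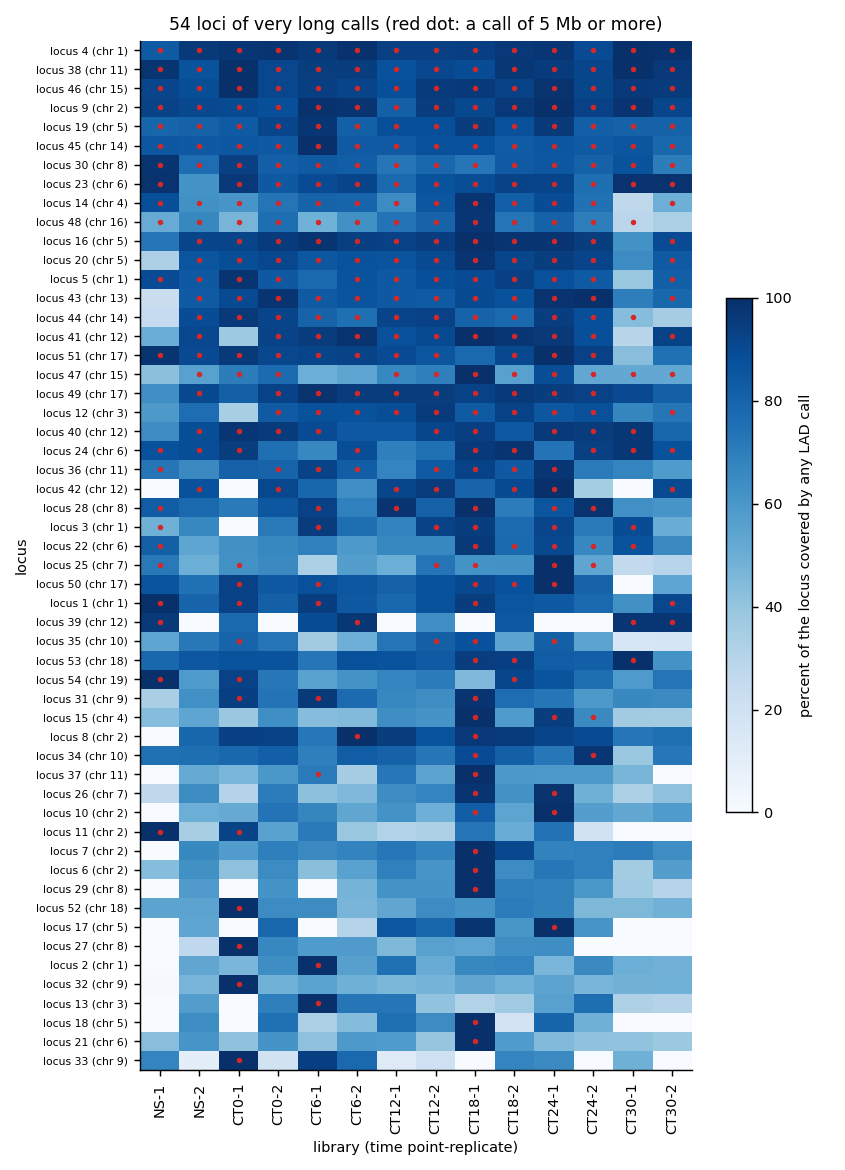
Each line of the heat map is a locus (54, with its chromosome) and each column a library, the blue scale gives the percent of the locus covered by any LAD call, and a red dot marks a library with a call of at least 5 Mb there. The top 7 lines carry a dot in all 14 libraries, and several of the lowest lines carry a dot in CT18 replicate 1 alone.

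Over the whole length reached by any of their calls, the 7 loci that were very long in every liver held 51 protein-coding genes in 64.2 Mb, or 0.794 per Mb. Of these genes, 30 were in a very long call in all 14 libraries. The longest was locus 46, chr15:12784001-25427000 (mm10), where the call measured 11.1 Mb at the lowest, 11.8 Mb at the median and 12.6 Mb at the highest. It holds the type II cadherin genes Cdh6, Cdh9, Cdh10, Cdh12 and Cdh18, next to Drosha, the nuclease that starts microRNA processing. Of these, Cdh9, Cdh10, Cdh12 and Cdh18 were in the very long call of every liver. The call of CT0 replicate 1 alone held all 9 genes of the locus, Drosha included, and the calls of the other livers held 5 or 6. Locus 4, chr1:107982001-118296000, had calls of 8.60, 9.96 and 10.3 Mb (lowest, median, highest), with the cadherins Cdh7 and Cdh19, the contactin-associated protein Cntnap5a and Dsel, an enzyme of dermatan sulfate synthesis. In both loci the 14 livers gave 1 unbroken call each.

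Locus 19, chr5:54207001-63735000, had calls of 7.53, 7.78 and 9.28 Mb and holds Pcdh7, a protocadherin. It was covered by more than 1 call in 4 livers, although the longest exceeded 5 Mb in each. Locus 45, chr14:105910001-114800000, had calls of 6.99, 7.53 and 8.89 Mb around Slitrk1, Slitrk5 and Slitrk6, transmembrane proteins that guide neurite growth and synapse formation. Locus 38, chr11:36048001-43338000, had calls of 6.30, 6.91 and 7.29 Mb with the GABA-A receptor subunit genes Gabra6 and Gabrb2 and the teneurin Tenm2. Within the same calls lay Mat2b, Hmmr, Nudcd2 and Ccng1, genes of general cell functions.

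Locus 9, chr2:94428001-101626000, had calls of 5.86, 6.67 and 7.18 Mb around Lrrc4c, which encodes netrin-G ligand 1. Locus 30, chr8:95914001-104249000, had calls of 5.84, 6.85 and 8.17 Mb around Cdh8, with Cdh11, Cdh5, Bean1 and Tk2 toward its end. Cdh5, Bean1 and Tk2 were in the very long call of NS replicate 1 alone. The stretch of locus 30 inside the very long call of every liver, chr8:97060001-102485000, held Cdh8 as its single protein-coding start site in 5.43 Mb. The corresponding stretch on chromosome 15, chr15:13786001-24570000, held 5 start sites in 10.8 Mb.

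A very long call was present in 12 or 13 livers at 8 further loci. Of these, loci 14, 44 and 48 are described with the longest calls, loci 16, 20 and 23 here, and loci 5 and 43, which come later in the order by length called in all livers, are not described. Locus 23, chr6:73278001-82015000, reached 8.62 Mb and fell below 5 Mb in NS replicate 2 alone, where the longest call was 3.24 Mb. It holds Lrrtm1, Lrrtm4 and Ctnna2, genes of synaptic adhesion, and the Reg cluster of secreted lectins. Locus 20, chr5:77508001-86849000, had calls of 7.82 to 9.16 Mb in 12 livers, 3.05 Mb in NS replicate 1 and 3.72 Mb in CT30 replicate 1. Its genes include Adgrl3 and Epha5, cell-surface receptors, and the Tmprss11 proteases. The very long calls of most livers there held 3 genes, and those of CT18 replicate 1, CT24 replicate 1 and CT24 replicate 2 held 15, 11 and 15. Locus 16, chr5:9139001-15060000, was below 5 Mb in the same 2 livers, at 4.33 and 3.69 Mb, and did not exceed 5.91 Mb in any. Sema3a, Sema3d and Sema3e, secreted guidance factors, and Grm3, a glutamate receptor, lie in it.

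The longest calls were found at 4 loci where neighbouring domains were called as 1 in some livers. At locus 14, chr4:12502001-32208000, the longest call was 19.3 Mb in CT18 replicate 1, 15.8 Mb in NS replicate 1 and in CT6 replicate 1, 15.4 Mb in CT24 replicate 1 and 14.96 Mb in CT12 replicate 2. In the remaining 9 livers it was between 2.29 Mb (CT30 replicate 1) and 9.31 Mb (CT18 replicate 2). The locus has 44 protein-coding start sites, from Triqk and Runx1t1 at the start to Epha7 and Map3k7 at the end. At locus 44, on chromosome 14 around Pcdh9, Pcdh17 and Pcdh20, 8 libraries had a call of 15 Mb or more. The call there was 18.99 Mb in CT0 replicate 1, 18.2 Mb in CT0 replicate 2, 17.6 Mb in NS replicate 2 and 4.88 Mb in NS replicate 1. Locus 44 is named for its long calls after its values were seen.

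At locus 48, chr16:65840001-84634000, CT18 replicate 1 had a single call of 18.3 Mb. CT24 replicate 1 followed with 9.56 Mb, and the longest call in the other 12 livers was 3.04 to 6.66 Mb. The genes Robo1 and Robo2, axon guidance receptors, lie in its first part and Ncam2, a neural adhesion protein, in its last part. At locus 15, chr4:63954001-80808000, calls of 16.8, 14.8 and 7.20 Mb were present in CT18 replicate 1, CT24 replicate 1 and CT24 replicate 2. In the other 11 livers the longest call was 2.65 to 4.15 Mb, and 13 livers had at least 2 calls in the locus. Locus 15 holds Tnc, an extracellular matrix protein, the endotoxin receptor Tlr4, Tle1 and Ptprd.

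**Figure D3:**
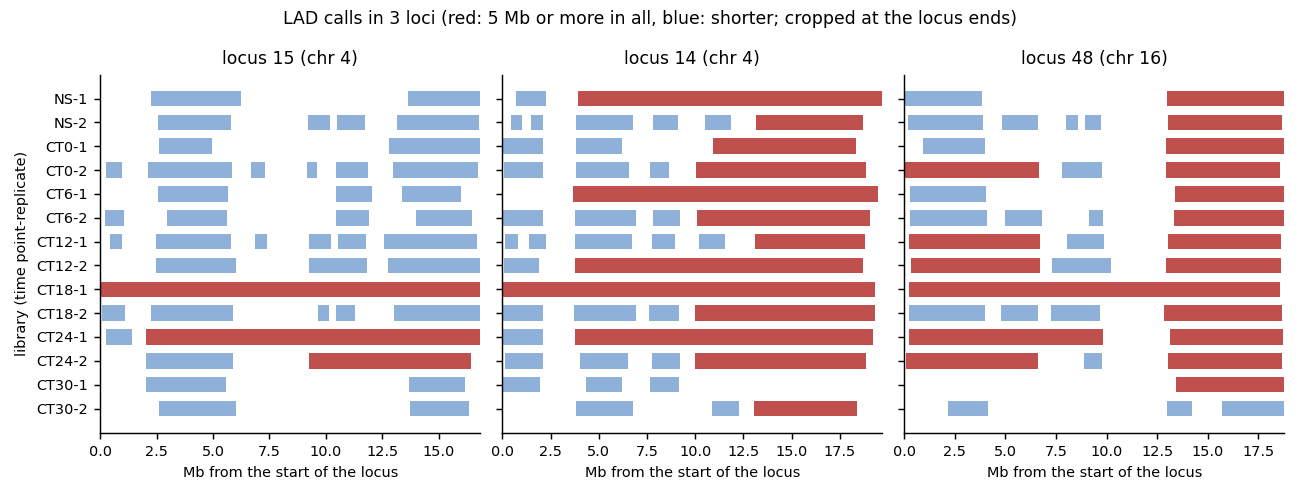
Each bar is a LAD call in loci 15, 14 and 48, drawn by library (lines) and by distance in Mb from the start of the locus, cropped at the locus ends, in red where the whole call is at least 5 Mb and in blue where it is shorter. In CT18 replicate 1 a single red bar spans nearly all of each locus, where most other livers show 2 or more separate bars with empty stretches at similar positions.

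Fusion and splitting were counted by following each very long call into each of the other 13 libraries, and a piece was a call with at least 100 kb of overlap. Of 4784 such pairs, 83.0% had 1 piece, 14.5% had 2 or more and 2.45% had none. A single piece covered more than 90% of the very long call in 62.1% of pairs. The share of split pairs depended on the library looked into, from 1.16% in NS replicate 1 and 1.23% in CT18 replicate 1 to 30.3% in NS replicate 2. The highest and the lowest value thus came from the 2 NS mice. A low share of split pairs did not always go with a long call. NS replicate 1 had no piece in 9.54% of pairs, the highest share, and covered 72.7% of a very long call on average. For CT18 replicate 1 these values were 1.53% and 92.6%.

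EDD counts reads in bins whose size is set for each library, and the bin size read from the positions of the calls was 4 to 61 kb. A relation chosen after seeing the data was a lower share of split pairs in libraries of larger bin size, over the 14 libraries (Pearson's r = -0.72, permutation p = 0.00492; Spearman's rho = -0.73, permutation p = 0.00449; adjusted p = 0.0123 for both over the 10 tests). Without NS replicate 2 and CT0 replicate 2, the libraries farthest from the median, r was -0.59. Within replicate 1 livers r was -0.57 (n = 7, exact permutation p = 0.183) and within replicate 2 livers -0.66 (n = 7, exact permutation p = 0.111). The number of very long calls showed no such relation with bin size (r = 0.02, permutation p = 0.938; rho = 0.06, permutation p = 0.835). What part the bin size had in the splits was not tested.

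**Figure D4:**
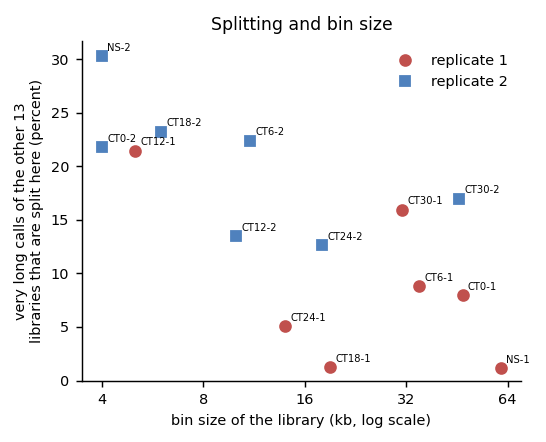
Each point is a library, placed by its bin size in kb (log scale) and by the percent of very long calls of the other 13 libraries that were in 2 or more pieces there, with circles for replicate 1 and squares for replicate 2. The libraries with bins of 4 to 6 kb lie above 21%, and NS replicate 1, with 61 kb, is at 1.16%.

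The stretches left out where a very long call was split held more genes than the stretches called. There were 335 such gaps in 14 libraries, with a median length of 1242 kb. The number in a library ranged from 2 in CT18 replicate 1 and 3 in NS replicate 1 to 52 in NS replicate 2. In each of the 14 libraries the gaps had more start sites per Mb (2.42 to 7.92, median 4.22) than the covered parts of the very long calls that were split there (0.993 to 2.03, median 1.30). The lowest and the highest gap density, 2.42 and 7.92, came from the few gaps of NS replicate 1 and CT18 replicate 1. GC content was also higher in the gaps of every library, 38.4% to 40.5% against 37.4% to 38.2%. The gaps fell at 59 positions, 26 of them left out in 5 or more libraries, and each of these 26 held a protein-coding start site. Most of the positions left out in fewer libraries held one as well. These counts are a description, with no test.

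The gap left out most widely, chr16:76040001-78690000 in locus 48, was open in 12 livers and bridged by a very long call in CT18 replicate 1 alone. It holds Nrip1, a corepressor of nuclear receptors that acts in lipid metabolism, Usp25, a deubiquitinase, Cxadr, the coxsackievirus and adenovirus receptor, and Btg3. The gap chr4:71350001-73132000 in locus 15, with the corepressor gene Tle1, was also open in 12 livers and was bridged in CT18 replicate 1 and CT24 replicate 1. The gap chr6:66836001-67374000, with Gng12, Gadd45a and Serbp1, was open in 12 and bridged in NS replicate 1 and CT18 replicate 1.

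In locus 14, chr4:14762001-16242000 was open in 11 livers and bridged in CT18 replicate 1. Its 10 genes include Decr1, an enzyme of fatty acid oxidation, Nbn, a protein of DNA break repair, and Otud6b. A second gap of locus 14, chr4:19459001-20112000, was open in 9 livers and bridged in 5, and holds Ttpa, the hepatic transfer protein of vitamin E, and Ggh. On chromosome 2, chr2:109445001-110344000 with Bdnf, Lin7c and Lgr4 was open in 11. On chromosome 11, chr11:16510001-17214000 was open in 10 livers and bridged in CT24 replicate 1, and holds Egfr, the receptor of epidermal growth factor. The gaps and genes named here were chosen after their values were seen, and 3 other gaps open in 10 livers (chromosomes 7, 9 and 13) and another open in 9 (chromosome 2) are not described. RNA levels were not used here, so whether the genes were transcribed was not measured.

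Very long calls held fewer genes than shorter calls of the same liver. The density was 1.47 ± 0.52 start sites per Mb in very long calls and 4.27 ± 0.23 in shorter calls (SD, n = 14). The difference was -2.79 ± 0.59 per Mb, in the same direction in 14 of 14 livers, from -3.46 to -1.55 (exact two-sided sign permutation test, p = 0.000122, the smallest it can give, adjusted p = 0.00061). CT6 replicate 2 and CT18 replicate 1 stood apart with 2.61 and 2.57 start sites per Mb in very long calls, while the other 12 livers did not exceed 1.77. These 2 livers carried the only very long calls of locus 8, a cluster of olfactory receptor genes on chromosome 2 with 234 start sites. Without olfactory and vomeronasal receptor genes the difference was -1.09 per Mb, and with a limit of 4 Mb it was -1.64 per Mb (exact two-sided sign permutation tests, p = 0.000122 and 0.000244).

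GC content differed in the same way but by less. It was 37.5% ± 0.33 in very long calls and 38.3% ± 0.32 in shorter calls, a difference of -0.75 ± 0.23 percentage points, lower in 14 of 14 livers (exact two-sided sign permutation test, p = 0.000122, adjusted p = 0.00061). Soft-masked repeats took 39.7% to 42.4% of the very long calls and 39.01% to 44.4% of the shorter calls, and these ranges overlapped. Livers of the series share the same genome, so that these 14 differences are not independent of each other where the same regions are called.

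Gene density changed within a short distance of the ends of very long calls. From 1 to 0 Mb outside the ends, the 14 libraries had a median of 6.84 start sites per Mb (5.43 to 7.74) and a GC content of 41.6%. In the first 0.5 Mb inside, the median was 2.27 start sites per Mb (1.00 to 3.79) and 38.7% GC. From 0.5 to 1.5 Mb inside it was 1.05 start sites per Mb (0.591 to 2.98) and 37.4% GC. The ranges of the libraries outside and inside did not overlap in either measure.

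**Figure D5:**
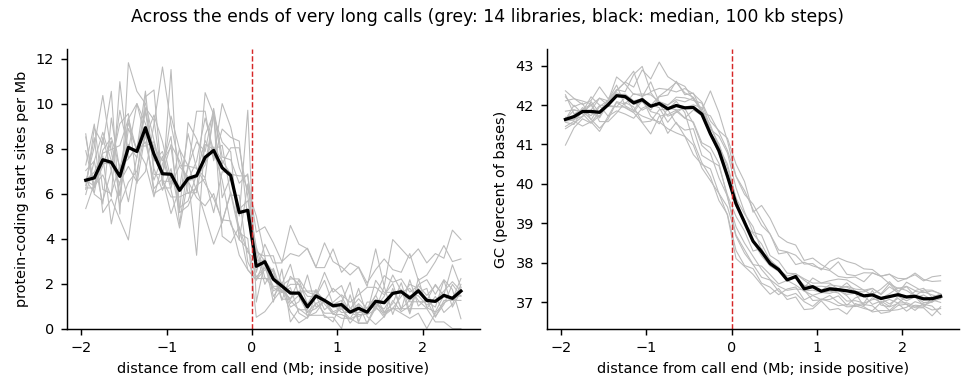
Protein-coding start sites per Mb (left) and GC percent (right) are plotted against the distance in Mb from the ends of very long calls, with negative distances outside, in 100 kb steps, with a grey line for each of 14 libraries and a black line for their median. Both measures fall across the dashed line at the call end, from about the level of 1 to 0 Mb outside (median 6.84 per Mb and 41.6%) to 1.05 per Mb and 37.4% from 0.5 to 1.5 Mb inside.

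Very long calls were also called more alike in the other mouse of the time point. On average 87.2% ± 6.73 of their length was covered by a call in the other mouse, compared with 73.3% ± 10.0 for shorter calls (SD over 7 time points). The difference of 13.9 percentage points had the same sign in 7 of 7 time points (exact two-sided sign permutation test, p = 0.0156, the smallest it can give, adjusted p = 0.0313). Each time point's difference was the mean of both directions, 27.4 points at CT0, the highest, and 6.24 points at CT30, the lowest. Taken by direction, only CT18 replicate 1 looked up in replicate 2 was reversed, at 82.1% for very long and 85.3% for shorter calls. Shorter calls of replicate 2 were covered at 45.8% (CT0) and 40.4% (NS) in replicate 1. Less was called in replicate 1 there, 424 against 574 Mb at CT0 and 333 against 519 Mb at NS. For very long calls the covered share was lowest at NS, at 77.7% and 72.1%, and highest at CT12, at 98.4% and 91.7%.

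Over all autosomal protein-coding genes, 5.49% (1143 of 20807) had their start site in a very long call in at least 1 library, 1.05% (219) in at least 7 and 0.144% (30) in all 14. Gene lists are described against these shares, with no test. Of 12 listed autosomal type II cadherin genes, 10 were in a very long call in at least 1 library, 8 in at least 7 and 7 in all 14: Cdh7, Cdh8, Cdh9, Cdh10, Cdh12, Cdh18 and Cdh19. Cdh11 was in a very long call in 11 libraries, Cdh6 in 4 and Cdh20 in 2. Cdh5 of locus 30 is not in the list and was in a very long call in NS replicate 1 alone. The 7 lie in 3 loci on chromosomes 1, 8 and 15 and are therefore not independent observations.

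Of 9 non-clustered protocadherin genes, 7, 5 and 1 passed the same 3 levels. Pcdh7 was very long in 14 libraries, Pcdh9 and Pcdh17 in 11, Pcdh10 in 10 and Pcdh20 in 8. Of 18 genes of contactins, contactin-associated proteins, neurexins and neuroligins, 8 were in a very long call in at least 1 library and 5 in at least 7. Cntnap5a was in all 14, and Cntn3, Cntn4 and Cntn6, neighbours on chromosome 6, were in 9. With a limit of 6 Mb, 1 of the 18 genes was in at least 7 libraries. Of 26 leucine-rich repeat adhesion genes, 11, 9 and 4 passed, with Lrrc4c, Slitrk1, Slitrk5 and Slitrk6 in all 14 libraries, Lrrtm1 and Lrrtm4 in 13 and Lrfn5 in 11.

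Of 43 axon guidance genes, 13 were in a very long call in at least 1 library and 6 in at least 7: Tenm2 in 14 libraries, Epha7 in 13, and Epha5, Sema3a, Sema3d and Sema3e in 12. With a limit of 6 Mb, 3 of the 43 were in at least 7. Of the GABA receptor subunit genes, Gabra6 and Gabrb2 were in a very long call in all 14 libraries. Of 25 glutamate receptor subunit genes, 5 were in at least 1 library and 1, Grm3, in at least 7. Of 91 potassium channel genes, 4 were in at least 1 library and 1, Kcnv1, in at least 7, which is close to the share of all genes.

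Olfactory receptors formed a different picture, with many genes packed into few loci. Of 1128 genes, 342 were in a very long call in at least 1 library, 39 in at least 7 and 0 in all 14. All 39 lie in locus 49 on chromosome 17, whose 10 very long calls had 12.4 to 14.1 start sites per Mb. The count rested on the limit of 5 Mb, since with a limit of 4 Mb it was 258 and with 6 Mb it was 0. At locus 8 the longest call was 5.18 Mb in CT6 replicate 2 and 5.02 Mb in CT18 replicate 1, and 4.95 Mb or less elsewhere. Of the 14 very long calls above the autosomal density of 8.45 start sites per Mb, 10 were at locus 49, 2 at locus 8 and 2 at locus 10. Of 326 vomeronasal receptor genes, 24 were in a very long call in at least 1 library and 0 in at least 7. When calls less than 100 kb apart were merged first, 42 were in at least 7.

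Gene families with main roles in hepatocytes had no start site in a very long call in any library: 0 of 99 cytochrome P450 genes, 0 of 42 UDP-glucuronosyl- and sulfotransferase genes, and 0 of 47 genes of plasma proteins made by the liver. The share of all genes was 5.49%. In calls of any length in at least 7 libraries these families also had 0 genes, so their absence was not particular to very long calls. Defensins, antimicrobial peptides, also had 0 of 64, although 25 of them were in a call of any length in at least 7 libraries, as were 8.20% of all genes. Of 22 core clock genes, 0 were in a very long call and 1 was in a call of any length in at least 7 libraries, and with so few genes neither count stands apart from the shares of all genes. Of 75 ribosomal protein genes, Rpl10l was in a very long call in 11 libraries and Rps27a in 1.

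Very long genes were a larger share of the genes in very long calls than of all genes. Genes over 500 kb were 16.7% (5 of 30) of those in a very long call in all 14 libraries and 6.39% (14 of 219) of those in at least 7, compared with 1.05% of all autosomal genes. Among the longest were Lrrc4c (1314 kb), Tenm2 (1229 kb) and Cdh12 (1140 kb). Slitrk1 (5.36 kb) and Slitrk5 (8.04 kb), in the same class, were short, and the median over the 30 genes was 31.2 kb, against 17.6 kb for all genes. The median was below that of all genes for the 219 genes in at least 7 libraries (9.73 kb) and for the 924 genes in 1 to 6 libraries (13.6 kb).

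Locus 39, chr12:17751001-24459000, stood apart from the other 53 loci in base composition and was singled out after its values were seen. Its GC content was 44.8%, and the other loci did not exceed 41.9%. It had a very long call in NS replicate 1, CT6 replicate 2 and both CT30 livers, at 6.47, 6.501, 6.54 and 6.53 Mb. In 4 livers the longest call there was 2.21 to 3.29 Mb, and in the other 6 livers there was none. The locus has 10 protein-coding genes, among them Adam17 and Ywhaq, and 144 annotated pseudogenes, the second highest number among the loci. How well reads can be placed in such a region was not tested.

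Some very long calls ended at undetermined bases of the assembly. On chromosome 1 a single undetermined base in the reference, drawn below with N in capitals and 40 bases on each side (chr1:25909711-25909791, GRCm38.p6, plus strand), separated adjoining calls in all 14 libraries.
chr1 break: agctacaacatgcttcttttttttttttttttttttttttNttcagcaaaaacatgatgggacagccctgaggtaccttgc

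The call before this base measured 0.710 to 1.20 Mb and the call after it 4.59 to 7.70 Mb, and only the 1 base lay between them. The second piece passed 5 Mb in 5 livers, which gave locus 1. Joined, the 2 pieces measured 5.34 to 8.91 Mb and passed 5 Mb in all 14 livers. In all libraries, 113 neighbouring calls were less than 100 kb apart, 75 of them with only undetermined bases between, and 20 of the 113 pairs would pass 5 Mb only when joined.

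By chromosome, very long calls were found on each of the 19 autosomes. Chromosome 5 had the most calls (40, in 5 loci), followed by chromosome 1 (38) and chromosome 12 (31). Chromosomes 19, 18 and 9 had the fewest, with 3, 4 and 5. The loci took 23.7% of chromosome 12, 23.4% of chromosome 4 and 23.2% of chromosome 5, against 8.94% of chromosome 19 and 9.34% of chromosome 3. No locus with a very long call in at least 7 libraries was on chromosomes 7, 9, 10, 18 or 19.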

How the data were processed

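LMNB1 ChIP-seq LAD calls of 14 livers were used as deposited. The authors aligned reads to mm10 with Bowtie, removed duplicates with Picard, matched the depth of ChIP and input per chromosome, and called LADs per library with EDD at a bin size and gap penalty set for each library. The deposited files hold call positions (other values: start and end in bp) with no counts, so that read depth is unknown here and no score per call was used. Input and RNA libraries were not used here. Members, gene lists and tests were chosen with earlier results of these data known.

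Calls of at least 5 Mb on chromosomes 1 to 19 were kept and joined into loci by any overlap (1 bp) between libraries. Loci described in full were the first 12 by number of libraries with a very long call, ties ordered by the base pairs covered by a call in all 14 libraries, that of the longest call and the 3 with the most split libraries. Genes were named by a start site in those loci, list members first. Gene positions came from GENCODE (mouse, mm10 coordinates), and GC, N and soft-masked bases were counted in windows of 1 kb of RefSeq GRCm38.p6, whose chromosomes carry the mm10 coordinates. Gene lists were matched by symbol, and some of their members are not reported here. Promoters were read at all 20807 GENCODE starts, of which 15703 matched the RefSeq promoter table. The bin size of a library was the step shared by its call positions. Tests were exact permutations over libraries, or 100000 permutations for correlations over 14 libraries, with Benjamini-Hochberg adjustment over the 10 tests. They were tested on simulated data. Python 3.11.15, NumPy 2.4.6, SciPy 1.17.1 and pandas 2.3.3 were used. Alternatives were the length limit, merging of near calls, chromosome X, N bases, each library left out, and the gene, piece and overlap rules.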

Additional observations from a re-analysis of the deposited data

Results flagged for a closer look

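Calls on the sex chromosomes were in none of the comparisons. There were 68 calls on chromosome X in 10 libraries, and 0 of them reached 5 Mb, the longest being 2.63 Mb in CT30 replicate 1. On chromosome Y there were 13 calls in 3 libraries, CT6 replicate 2, CT18 replicate 2 and CT24 replicate 2. Of these, 2 calls of at least 5 Mb, the longer of 6.93 Mb, were in CT24 replicate 2. The study's methods give male mice and the sample fields female, and the cause was not tested.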

How the results depend on the processing

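With a limit of 6 Mb in place of 5 Mb, the loci with a very long call in 7 or more libraries fell to 15 and the protein-coding genes in the loci to 705. The number of very long calls against log2 bin size, which passed no test, changed sign to r = -0.012 with a limit of 4 Mb and to r = -0.055 and rho = -0.051 with calls under 100 kb apart merged. It also changed sign on leaving out libraries: r ranged from -0.083 to 0.132 and rho from -0.065 to 0.240, with r = -0.083 and rho = -0.055 without NS replicate 2, r = -0.037 and rho = -0.065 without CT0 replicate 1, r = -0.020 without CT0 replicate 2, r = -0.029 without CT12 replicate 1 and r = -0.034 without CT18 replicate 1. Without single libraries, F for the number of calls ranged from 1.39 to 7.28 and F for their summed length from 0.939 to 5.75. Both were highest without CT18 replicate 2, where CT18 was left with 1 mouse and no spread between mice.

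No source used here says that a replicate number marks shared animals or a batch. Of 21 pairs of time points, 8 had deviations of same-numbered samples that correlated above 0.1 (r from -0.20 to 0.46). With the replicate block, F for the number of calls was 2.85 (exact permutation p = 0.0389), F for their summed length 1.95 (exact permutation p = 0.114), and CT0 minus NS stayed at 5.5 calls (exact permutation p = 0.5). Between the highest and the lowest time point the number of calls differed by 25 in replicate 1 alone and by 8 in replicate 2 alone.

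Gene density, GC content and the share covered in the other mouse kept their direction and their side of the threshold under every alternative run. The split share against bin size, a relation added after seeing the data, kept them under the other limits, merging, piece size and each library left out, but within the 7 livers of replicate 1 or 2 alone it kept its direction and missed the threshold (exact permutation p = 0.183 and 0.111). Read depth is unknown, and 2 mice per time point limit the comparisons over the cycle.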
